A study of Homo sapiens with 12 samples.

Results

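The genes described are 28 genes of cholesterol synthesis and uptake, taken as a given list of symbols matched to gene IDs, out of 28704 genes listed in either count table and 22730 listed in both. All 28 are listed in both tables, and all 28 passed the filter on low counts in both. The list holds 21 enzymes and enzyme partners that build cholesterol from acetyl-CoA units, 3 genes of sterol uptake and transport, and 4 regulators. The study sequenced RNA from established human hepatoma cell lines, in 12 libraries. In each of the libraries labelled Hep-3B and Huh-7, 3 came from cells transfected with a negative-control siRNA (control) and 3 from cells transfected with siARD1, an siRNA against ARD1. The current symbol of ARD1 is NAA10, and its product is the active enzyme of NatA, a complex that puts acetyl groups on the N termini of new proteins. The title of the series links ARD1 to glutathione synthesis and to escape from ferroptosis, an iron-dependent cell death. No other agent or genetic change is named in the labels, and the dose, sequence and duration of the siRNA treatment have no entry in them. The labels do not say that replicates were separate cultures, so each p-value measures only the spread between these libraries.

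Cells make cholesterol from acetyl-CoA through mevalonate, farnesyl diphosphate, squalene and lanosterol, and they take it up from lipoproteins through receptors at the cell surface. SREBP2, the product of SREBF2, switches on the genes of both routes. It is held in the endoplasmic reticulum by SCAP and the INSIG proteins while sterols are plentiful, and moves with SCAP to the Golgi, where it is cut and released, when sterols fall. INSIG1 and SREBF2 are themselves known SREBP2 targets, which makes the pathway a feedback loop, and hepatocytes are among the main cells that make cholesterol.

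SREBP2 is known to bind sterol elements close to boxes of the factor NF-Y. RefSeq promoter windows of 300 bases (250 before to 50 after an annotated start, GRCh38.p14) were found for 25 of the 28 genes, in 33 windows. They were searched on both strands for the sterol element TCACNCCAC, the NF-Y box CCAAT, the E-box CACGTG and the GC box GGGCGG, with overlapping matches counted. The windows of 20 of the 25 genes held at least 1 CCAAT. By window, 66.7% of the 33 held at least 1, against 34.6% of all 35116 windows in the table, which include those of non-coding genes. At least 3 stood in 27.3% of the 33 windows, against 3.26% of all windows. TCACNCCAC stood in 1 gene, SREBF2, and in 1.13% of all windows. CACGTG stood in 15.2% of the 33 windows and 7.26% of all, and GGGCGG in 87.9% and 45%. A match describes letters, not a bound site. Upstream stretches are shown for 5 genes that the results turn on, with CCAAT (or ATTGG, its reverse) and TCACNCCAC in capitals. SREBF2, at chr22:41832855-41833078 on the plus strand, carries the single exact match to TCACNCCAC in the 33 windows. Other forms of the element were not searched for. INSIG1, at chr7:155297628-155297775 on the plus strand, and INSIG2, at chr2:118088221-118088451 on the plus strand, are close relatives that fell alongside each other in Huh-7, while under the Hep-3B label INSIG1 fell and INSIG2 was not called. MYLIP, at chr6:16128836-16129085 on the plus strand, had the largest fall of the 28 in Huh-7. NSDHL, at chrX:152830813-152830966 on the plus strand, moved in opposite directions under the 2 labels, and its run CCAATTGG matches on both strands.
SREBF2: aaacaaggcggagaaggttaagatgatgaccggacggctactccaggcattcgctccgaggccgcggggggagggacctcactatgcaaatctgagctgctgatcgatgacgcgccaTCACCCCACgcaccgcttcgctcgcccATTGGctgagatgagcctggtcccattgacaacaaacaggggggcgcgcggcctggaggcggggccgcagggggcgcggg
INSIG1: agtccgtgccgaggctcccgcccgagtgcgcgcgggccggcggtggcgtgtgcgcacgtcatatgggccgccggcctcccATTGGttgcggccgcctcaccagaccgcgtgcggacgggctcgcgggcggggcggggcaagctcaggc
INSIG2: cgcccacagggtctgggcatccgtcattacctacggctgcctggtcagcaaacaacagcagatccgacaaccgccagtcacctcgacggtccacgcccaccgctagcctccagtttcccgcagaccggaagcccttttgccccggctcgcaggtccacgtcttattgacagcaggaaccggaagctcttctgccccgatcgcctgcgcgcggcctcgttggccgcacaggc
MYLIP: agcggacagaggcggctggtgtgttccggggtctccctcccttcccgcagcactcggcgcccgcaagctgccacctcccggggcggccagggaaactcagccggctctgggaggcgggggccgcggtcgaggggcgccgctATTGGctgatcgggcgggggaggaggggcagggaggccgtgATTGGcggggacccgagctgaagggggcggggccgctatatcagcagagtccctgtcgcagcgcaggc
NSDHL: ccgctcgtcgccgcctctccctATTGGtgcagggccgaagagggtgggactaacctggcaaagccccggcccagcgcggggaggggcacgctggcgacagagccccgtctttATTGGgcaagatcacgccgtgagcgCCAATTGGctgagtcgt
The stretches of SREBF2, INSIG1 and MYLIP hold 1, 1 and 2 CCAAT, that of NSDHL holds 4, and that of INSIG2 holds 0.

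Total counts ran from 17327615 to 25960237 per library, and CPM below are counts scaled to library size with TMM factors. NAA10 held 48.4, 58.7 and 58.7 CPM in the controls labelled Hep-3B and 10.9, 15.6 and 14.4 CPM after siARD1, or 24.9% of control. Its level in Huh-7 was 165, 156 and 200 CPM in controls and 13.2, 9.86 and 9.99 CPM after siARD1, or 6.34% of control. Hep-3B is known to make albumin and alpha-fetoprotein. The libraries under that label held 0.564 to 6.2 CPM of ALB and 0.26 to 1.97 CPM of AFP, against 10700 to 12800 and 3180 to 5280 CPM in Huh-7. HNF4A, another hepatocyte marker, held 42.6 to 48.6 CPM under the label, against 337 to 368 CPM in Huh-7. The label goes against the ALB and AFP levels and is used below only as a label. The summed level of the hepatocyte markers (6 of 7 listed) also moved with treatment under that label, from 668 to 799 CPM in controls to 288 to 324 CPM after siARD1. Of the 6 tested, 5 fell, against 15.3% of all genes tested. In Huh-7 their sum went from 22800 to 24200 CPM to 18700 to 22000 CPM, and 3 of 7 fell, against 18.9% of all genes. Summed fibroblast markers in Huh-7 went from 36.1 to 41.9 CPM to 29.1 to 30.9 CPM, and 2 of the 5 tested fell, against the same 18.9%. Summed keratinocyte markers went from 13.6 to 16.2 CPM to 9.12 to 9.72 CPM under the Hep-3B label. Summed fibroblast markers there were at 162 to 174 CPM and 137 to 172 CPM, and 1 of the 5 tested rose, against 16.8% of all genes. Summed endothelial markers there were at 53.3 to 65.9 CPM and 63.4 to 76.2 CPM, and of the 2 tested 1 rose and 1 fell. The part of these markers in the results below was not tested. Carry-over of Huh-7 RNA was gauged on 31 genes. They were picked for at least 100 CPM in Huh-7 controls and a mean at least 1000 times lower under the Hep-3B label. Their median share of the Huh-7 level was 0.00462% to 0.0492% per library labelled Hep-3B, a low share that this choice of genes favours. Carry-over at 0.0492% would make up at most 0.715% of the level of any of the 28 genes there. Control 1 under the Hep-3B label stood apart for these genes. It was the highest of the 3 controls in 23 of the 28 (82.1%), against 35.7% of all genes tested, and its median ratio to the mean of the other controls was 1.13. In Huh-7, control 2 was the highest control in 17 of the 28 (60.7%), against 33.6% of all genes, and siARD1 3 was the highest siARD1 library in 17 (60.7%), against 38.3%. Each had a median ratio of 1.05 to the other libraries of its group, and that of control 1 was 0.936.

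Of the 28 genes, 18 fell and 1 rose after siARD1 in the libraries labelled Hep-3B, and 14 fell and 5 rose in Huh-7. A gene is called changed at an edgeR adjusted p under 0.05 over all genes tested, and fold changes are log2, siARD1 minus control. Among the libraries labelled Hep-3B, 19 of 28 were called, against 32.2% of all genes tested. Of these, 18 fell, against 15.3% of all genes, and only SC5D rose, against 16.8%. The same 18 were those whose siARD1 libraries all lay below the controls, a pattern seen in 22.3% of all genes. In Huh-7, 19 of 28 were called, against 40.1% of all genes. There 14 fell, against 18.9%, and 5 rose, against 21.2%, and 16 lay wholly below the controls, against 23.9%. The median log2 change of the 28 was -0.43 and -0.17, where that of all genes tested was -0.01 in each line. Their summed level went from 2311, 2024 and 2034 CPM to 1538, 1482 and 1551 CPM under the Hep-3B label, 28.2% lower. Summed over the same genes, Huh-7 went from 3557, 3774 and 3705 CPM to 3173, 3181 and 3327 CPM, 12.3% lower. The groups did not overlap in either line. In bulk RNA, fewer cells expressing a gene and less of its RNA per cell cannot be told apart. With upper-quartile scaling the share of higher calls among all called genes of Huh-7 went from 52.9% to 39.7%, and the 28 then had 3 rises and 18 falls. The 5 rises in Huh-7 also came to 3 without control 1, control 2, control 3, siARD1 1 or siARD1 3, with DESeq2 and with both lines in one fit. With 1 library left out, the falls in Huh-7 numbered 12 to 16.

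**Figure D1:**
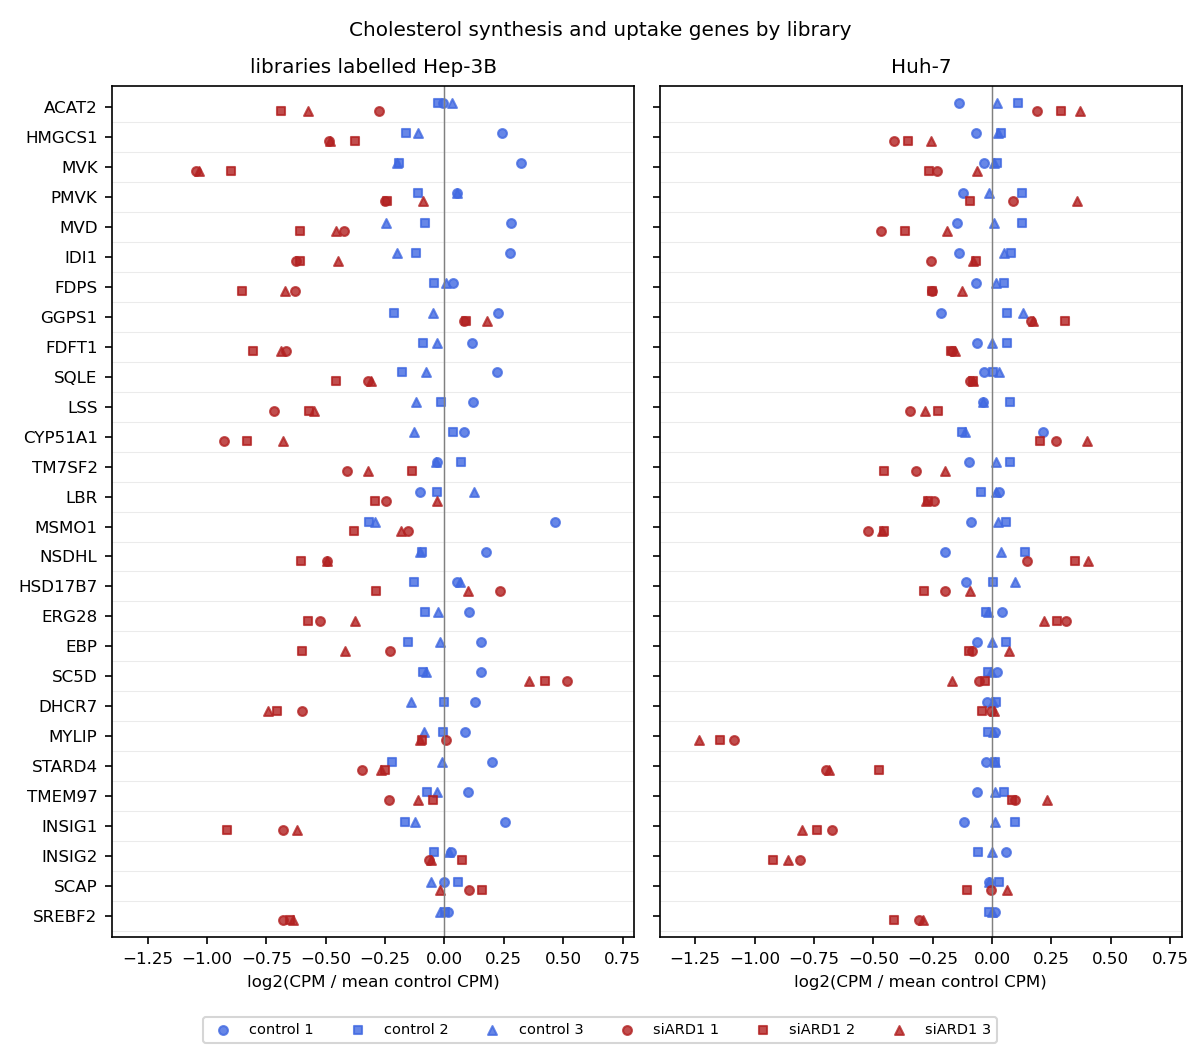
Level of each of the 28 genes in every library, as log2 of its CPM over the mean CPM of the 3 controls of the same line (horizontal axis), with controls in blue, siARD1 in red and the marker shape giving the replicate number. Under the Hep-3B label 18 genes have all siARD1 points left of all control points, and control 1 (blue circle) is the highest control in 23 genes.

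Of the 4 regulators, 2 fell under the Hep-3B label, against 15.3% of all genes tested, and 3 in Huh-7, against 18.9%. None rose in either. SREBF2 (chr22:41833079-41907308, plus strand) held 366, 363 and 358 CPM in the controls labelled Hep-3B and 226, 231 and 233 CPM after siARD1. It fell by 36.4% (log2 change -0.65, SE 0.05, edgeR adjusted p = 7.38e-07). In Huh-7 it held 321, 315 and 318 CPM in controls and 257, 239 and 260 CPM after siARD1, and fell by 20.7% (log2 change -0.34, SE 0.05, edgeR adjusted p = 2.19e-05). The replicates of each group lay close together and well apart from the other group in both lines. The fall was larger under the Hep-3B label, by 0.30 log2 units (SE 0.08, adjusted p of the difference 0.00309).

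INSIG1 (chr7:155297776-155310235, plus strand), which retains SCAP and SREBP2 in the endoplasmic reticulum, fell by 40.0% under the Hep-3B label and by 39.9% in Huh-7. It held 224, 167 and 172 CPM in the controls labelled Hep-3B and 117, 99.4 and 122 CPM after siARD1 (log2 change -0.74, SE 0.12, edgeR adjusted p = 0.00113). Huh-7 went from 119, 138 and 130 CPM to 80.9, 77.4 and 74.1 CPM (log2 change -0.73, SE 0.06, edgeR adjusted p = 5.51e-09). All siARD1 libraries lay below all controls of their line, and control 1 was the high one under the Hep-3B label. The difference between the 2 changes was -0.01 with an SE of 0.15.

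INSIG2 (chr2:118088452-118110997, plus strand), its relative with the same role, fell in Huh-7 and was not called under the Hep-3B label. In Huh-7 it went from 52.9, 48.7 and 50.8 CPM to 29, 26.8 and 28 CPM, a fall of 44.9% (log2 change -0.86, SE 0.07, edgeR adjusted p = 4.66e-09). The libraries labelled Hep-3B held 54.6, 52 and 54.3 CPM in controls and 51.3, 56.4 and 51.6 CPM after siARD1 (log2 change -0.01, SE 0.07, adjusted p = 0.901). The Huh-7 groups were far apart while the others overlapped, and the difference of -0.86 (SE 0.10) passed its test at an adjusted p of 2.35e-07. SCAP, the sterol-sensing escort of SREBP2, was not called in either line, at 0.08 (SE 0.07) and -0.02 (SE 0.05).

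**Figure D2:**
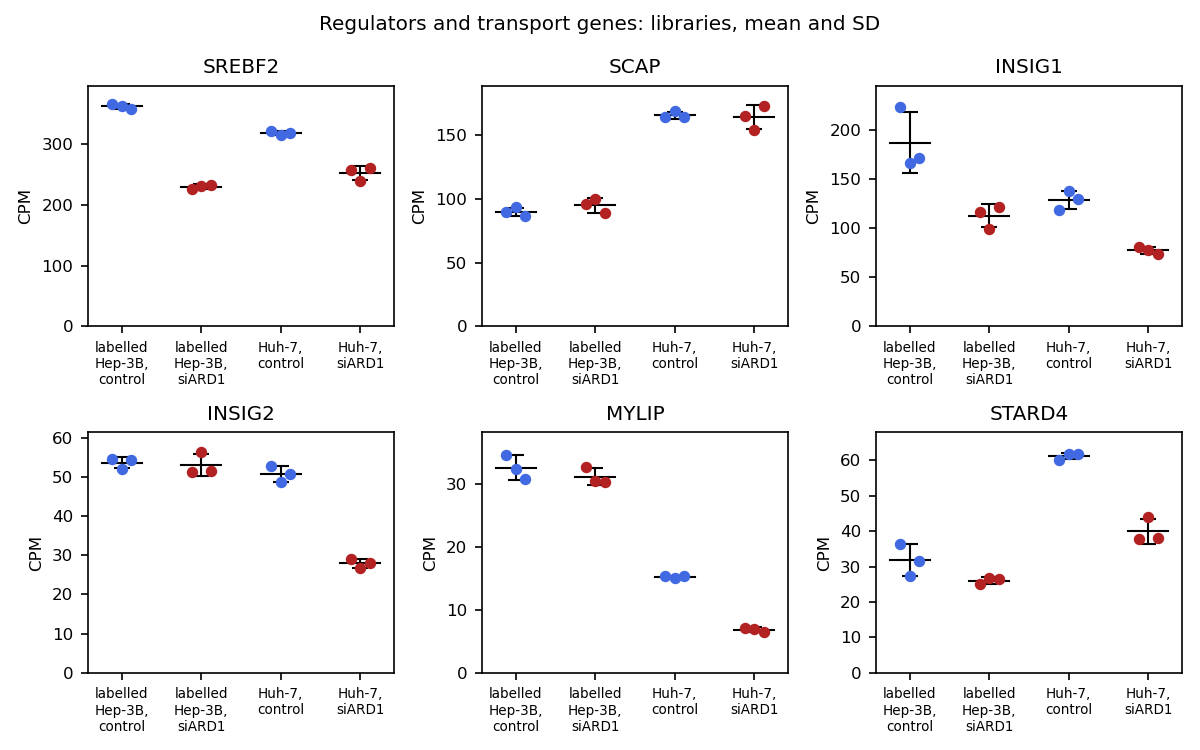
CPM of SREBF2, SCAP, INSIG1, INSIG2, MYLIP and STARD4 in each library (points), with the mean and SD of the 3 libraries of each group (black). INSIG2 and MYLIP drop in Huh-7 alone, while SREBF2 and INSIG1 drop under both labels.

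The 5 genes of the first steps, from acetyl-CoA to isopentenyl diphosphate, gave 4 falls under the Hep-3B label, against 15.3% of all genes tested. In Huh-7 they gave 3 falls, against 18.9%, and 1 rise, against 21.2%. ACAT2, which joins the first acetyl-CoA units in the cytosol, went from 19.3, 19 and 19.8 CPM to 16, 12 and 13 CPM under the Hep-3B label (log2 change -0.51, SE 0.11, edgeR adjusted p = 0.0026). In Huh-7 it went from 101, 120 and 113 CPM to 127, 136 and 144 CPM (log2 change 0.28, SE 0.06, edgeR adjusted p = 0.00117). The groups did not overlap in either line, and the direction was opposite. TCP1, which shares 397 exonic bases with ACAT2 on the other strand, held 370 to 416 CPM in the Huh-7 controls and 464 to 483 CPM after siARD1 (log2 change 0.25, edgeR adjusted p = 0.000783). Under the Hep-3B label TCP1 was not called (log2 change -0.05, edgeR adjusted p = 0.552). The strand setting of the counting is not given in the sources used here, so reads of such pairs may not be told apart. HMGCS1, which makes HMG-CoA, fell in both, by 26.9% under the Hep-3B label (log2 change -0.45, edgeR adjusted p = 0.00322) and by 21% in Huh-7 (log2 change -0.34, edgeR adjusted p = 4.01e-05).

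MVK, mevalonate kinase, had the largest fall of the 28 under the Hep-3B label. It held 25, 17.5 and 17.4 CPM in controls and 9.66, 10.7 and 9.75 CPM after siARD1, 50.2% of control (log2 change -0.99, SE 0.14, edgeR adjusted p = 6.51e-05). Control 1 was the high one, and the change without it was -0.79 (adjusted p = 5.02e-05). In Huh-7 it went from 60.0, 62.3 and 61.8 CPM to 52.3, 51.1 and 58.8 CPM (log2 change -0.18, SE 0.07, edgeR adjusted p = 0.0289). It was no longer called without control 2 (-0.17, 0.0928), control 3 (-0.18, 0.0927), siARD1 1 (-0.16, 0.106) or siARD1 2 (-0.14, 0.125), nor with both lines in one fit (-0.20, 0.114). MMAB, a cobalamin enzyme gene that starts 619 bases away on the other strand and shares 306 exonic bases with MVK, moved with it. It went from 23.9, 21.2 and 22.3 CPM to 13.7, 9.51 and 13.1 CPM under the Hep-3B label (log2 change -0.90, edgeR adjusted p = 6.13e-05), and its change in Huh-7 was -0.15 (adjusted p = 0.07). MVD, which makes isopentenyl diphosphate, fell in both lines, by -0.50 (edgeR adjusted p = 0.00503) and -0.34 (edgeR adjusted p = 0.00152) in log2, and by -0.32 under the Hep-3B label without control 1. PMVK, the kinase before it, was not called in either line (-0.19 and 0.13).

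Of the isoprenoid steps, FDPS, which makes farnesyl diphosphate, fell in both lines. The libraries labelled Hep-3B went from 87.4, 82.6 and 85.5 CPM to 55, 47.2 and 53.5 CPM (log2 change -0.72, SE 0.07, edgeR adjusted p = 3.4e-06). Huh-7 went from 177, 192 and 188 CPM to 156, 156 and 170 CPM (log2 change -0.21, SE 0.05, edgeR adjusted p = 0.00389). Both pairs of groups were separate, and the fall was 0.49 log2 units larger under the Hep-3B label (adjusted p of the difference 0.000119). RUSC1-AS1, which overlaps FDPS on the other strand was also lower in both (-0.48 and -0.63, edgeR adjusted p = 0.0401 and 0.000118). IDI1, the isomerase of isopentenyl diphosphate, fell under the Hep-3B label (log2 change -0.56, edgeR adjusted p = 0.00163) and was at -0.13 in Huh-7 (adjusted p = 0.114), where it was called without control 1 (-0.19, 0.0216). GGPS1, which draws farnesyl diphosphate off towards geranylgeranyl groups, was called in neither line, at 0.11 and 0.21.

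All 3 genes that turn farnesyl diphosphate into lanosterol fell under the Hep-3B label, against 15.3% of all genes tested. FDFT1, squalene synthase, went from 360, 312 and 325 CPM to 209, 190 and 206 CPM (log2 change -0.72, SE 0.07, edgeR adjusted p = 1.67e-06). Its Huh-7 values were 243, 265 and 254 CPM in controls and 226, 225 and 228 CPM after siARD1 (log2 change -0.17, SE 0.05, edgeR adjusted p = 0.0127). The groups were separate in both lines, but the Huh-7 value was not called without control 2 (-0.13, 0.0956) or control 3 (-0.16, 0.0599). LSS, lanosterol synthase, fell in both, at -0.61 (edgeR adjusted p = 2.2e-05) and -0.28 (edgeR adjusted p = 0.000319). SQLE, squalene epoxidase, fell under the Hep-3B label at -0.37 (edgeR adjusted p = 0.00661), or -0.24 without control 1 (0.0101), and was at -0.09 in Huh-7 (SE 0.05, adjusted p = 0.182), or -0.15 (0.0205) with upper-quartile scaling.

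**Figure D3:**
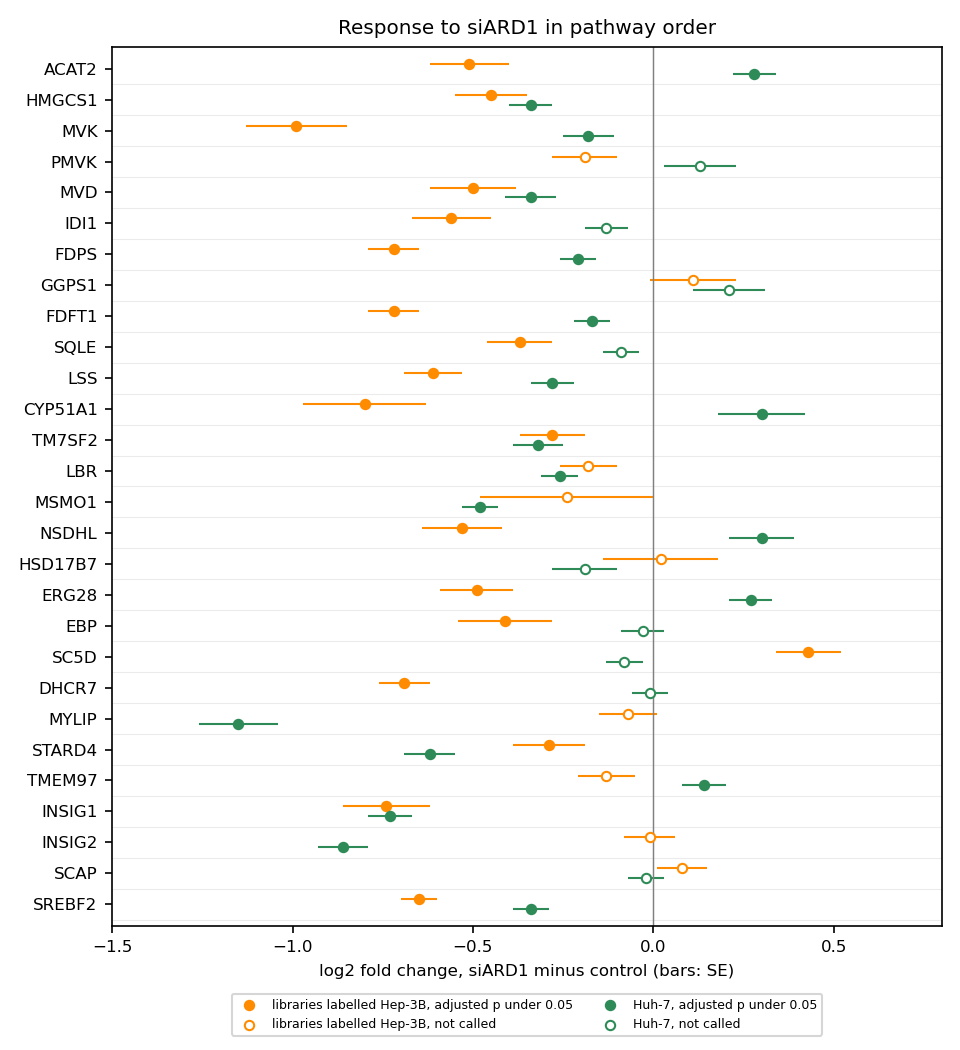
Log2 change of each gene after siARD1 (horizontal axis, bars are SE) in pathway order, with filled points for an edgeR adjusted p under 0.05 and open points for the rest. From MVK to LSS the points of the libraries labelled Hep-3B lie mostly left of those of Huh-7. Of the genes called in both lines, ACAT2, CYP51A1, NSDHL and ERG28 lie on opposite sides of 0.

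The 10 genes between lanosterol and cholesterol gave mixed changes. Of these, 6 fell under the Hep-3B label, against 15.3% of all genes tested, and 1 rose, against 16.8%. In Huh-7 3 fell, against 18.9%, and 3 rose, against 21.2%. CYP51A1, the lanosterol 14-demethylase, held 5.56, 5.39 and 4.80 CPM in the controls labelled Hep-3B and 2.76, 2.95 and 3.28 CPM after siARD1 (log2 change -0.80, SE 0.17, edgeR adjusted p = 0.00191). Its lowest library there had 48 counts. In Huh-7 it went from 12.9, 10.2 and 10.3 CPM to 13.4, 12.8 and 14.7 CPM (log2 change 0.30, SE 0.12, edgeR adjusted p = 0.0406). The Huh-7 groups overlapped, and the gene was not called without control 2 (0.25, 0.156), control 3 (0.25, 0.164), siARD1 1 (0.32, 0.0701) or siARD1 3 (0.25, 0.127), with DESeq2 (0.30, 0.0728), with upper-quartile scaling (0.24, 0.105) and with both lines in one fit (0.28, 0.086).

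NSDHL and ERG28, a sterol dehydrogenase and a scaffold protein of the demethylation complex at carbon 4, also moved in opposite directions. NSDHL (chrX:152830967-152869729, plus strand) went from 19.4, 16.1 and 16 CPM to 12.2, 11.3 and 12.2 CPM under the Hep-3B label (log2 change -0.53, SE 0.11, edgeR adjusted p = 0.00193). In Huh-7 it went from 21.9, 27.7 and 25.8 CPM to 27.8, 32 and 33.3 CPM (log2 change 0.30, SE 0.09, edgeR adjusted p = 0.0126), a call lost without the low control 1 (0.21, adjusted p = 0.0759). The Huh-7 groups were narrowly separate, at 27.7 against 27.8 CPM. CETN2, which starts 190 bases away on the other strand, was called in neither line (-0.05 and -0.01). ERG28 went from 22.9, 20.1 and 20.9 CPM to 14.8, 14.3 and 16.4 CPM under the Hep-3B label (log2 change -0.49, SE 0.10, edgeR adjusted p = 0.00155). Its Huh-7 values were 45.1, 43.1 and 43.4 CPM in controls and 54.5, 53.1 and 51 CPM after siARD1 (log2 change 0.27, SE 0.06, edgeR adjusted p = 0.00191). Both lines gave separate groups for ERG28. TTLL5, which spans ERG28 on the other strand, was lower under the Hep-3B label (-0.38, edgeR adjusted p = 0.00137) and at 0.02 in Huh-7.

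MSMO1, the oxidase of the same complex, rested on 1 library under the Hep-3B label. It held 91.9, 53.3 and 54.3 CPM in the controls labelled Hep-3B and 59.8, 51.1 and 58.5 CPM after siARD1 (log2 change -0.24, SE 0.24, adjusted p = 0.505). Control 1 lay far above all others, and the change without it was 0.07 (adjusted p = 0.535). In Huh-7 MSMO1 fell from 235, 260 and 254 CPM to 174, 182 and 181 CPM (log2 change -0.48, SE 0.05, edgeR adjusted p = 3.16e-07), with separate groups. That adjusted p was 0.0668 with both lines in one fit, where the spread is shared with the libraries labelled Hep-3B. The difference between lines was -0.26 (adjusted p = 0.523), and -0.54 (adjusted p = 2.44e-05) without that control. HSD17B7, the ketone reductase of the complex, was called in neither line (0.02 and -0.19), but was called in Huh-7 without control 1 (-0.24, 0.0436) or siARD1 3 (-0.24, 0.0421).

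Among the last steps, DHCR7 and SC5D, which act one after the other at the end of the pathway, moved in opposite directions under the Hep-3B label. DHCR7, the 7-dehydrocholesterol reductase, went from 209, 191 and 173 CPM to 126, 117 and 114 CPM (log2 change -0.69, SE 0.07, edgeR adjusted p = 4.56e-06). In Huh-7 it held 394, 404 and 400 CPM in controls and 398, 388 and 402 CPM after siARD1 (log2 change -0.01, SE 0.05, adjusted p = 0.876). NADSYN1, 241 bases from DHCR7 on the other strand, was at -0.15 and -0.17 and not called. SC5D, the desaturase that makes 7-dehydrocholesterol, was the single member that rose under the Hep-3B label, from 28.2, 23.8 and 24 CPM to 36.2, 34 and 32.4 CPM (log2 change 0.43, SE 0.09, edgeR adjusted p = 0.00193). It stood at 114, 111 and 112 CPM in Huh-7 controls and at 108, 110 and 99.8 CPM after siARD1 (log2 change -0.08, SE 0.05, adjusted p = 0.252). The groups of both genes were separate under the Hep-3B label.

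EBP, the sterol isomerase, fell under the Hep-3B label (-0.41, edgeR adjusted p = 0.0266) and was at -0.03 in Huh-7. Under the Hep-3B label EBP was not called without control 1 (-0.33, 0.101), control 3 (-0.43, 0.0556), siARD1 2 (-0.33, 0.10) or siARD1 3 (-0.41, 0.0677). TM7SF2 and LBR encode sterol 14-reductases, and LBR also anchors chromatin at the nuclear lamina. TM7SF2 fell in both, at -0.28 (edgeR adjusted p = 0.0193) and -0.32 (edgeR adjusted p = 0.00103). The first of these did not pass without control 2 (-0.25, 0.0793), siARD1 1 (-0.23, 0.11) or siARD1 3 (-0.26, 0.0671), and VPS51, which overlaps TM7SF2 by 16 bases on the same strand, was at -0.44 there (edgeR adjusted p = 7.7e-05). LBR fell in Huh-7 from 208, 197 and 206 CPM to 172, 169 and 168 CPM (log2 change -0.26, edgeR adjusted p = 0.000236). Its change of -0.18 under the Hep-3B label was not called (adjusted p = 0.0863) except without control 1 (-0.23, 0.0347) or siARD1 3 (-0.27, 0.0211), with upper-quartile scaling (-0.22, 0.0411), with the replicate number as a block (-0.19, 0.0252) and with both lines in one fit (-0.18, 0.039).

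Of the 3 uptake and transport genes, 2 fell in Huh-7, against 18.9% of all genes tested, and 1 rose, against 21.2%. Under the Hep-3B label 1 fell, against 15.3%. MYLIP (chr6:16129125-16148248, plus strand), a ubiquitin ligase that marks lipoprotein receptors for breakdown and is known as a target of the liver X receptors, held 15.4, 15.1 and 15.3 CPM in Huh-7 controls and 7.18, 6.90 and 6.49 CPM after siARD1. It fell by 55% (log2 change -1.15, SE 0.11, edgeR adjusted p = 4.79e-08), the largest fall of the 28 in that line. In the libraries labelled Hep-3B it held 34.6, 32.4 and 30.7 CPM in controls and 32.7, 30.5 and 30.3 CPM after siARD1 (log2 change -0.07, SE 0.08, adjusted p = 0.571). The Huh-7 groups were far apart and the others overlapped, and the difference was -1.10 (SE 0.13, adjusted p of the difference 3.63e-07). STARD4, a carrier of cholesterol between membranes, fell in Huh-7 from 60.2, 61.8 and 61.8 CPM to 37.7, 44 and 38.1 CPM (log2 change -0.62, SE 0.07, edgeR adjusted p = 3.72e-07). The libraries labelled Hep-3B went from 36.5, 27.3 and 31.6 CPM to 25, 26.7 and 26.4 CPM (log2 change -0.29, SE 0.10, edgeR adjusted p = 0.0341). STARD4 was not called there without control 1 (-0.18, 0.175), control 3 (-0.30, 0.071) or any siARD1 library (-0.31 to -0.26, 0.0523 to 0.118). TMEM97, an endoplasmic reticulum protein linked to sterol trafficking, went from 146, 158 and 154 CPM to 163, 162 and 179 CPM in Huh-7 (log2 change 0.14, SE 0.06, edgeR adjusted p = 0.049). Its call was lost without 5 of the 6 libraries, control 1, control 2, control 3, siARD1 1 and siARD1 3 (0.09 to 0.17, adjusted p 0.0517 to 0.186), and with all other scalings and tools tried (0.08 to 0.14, adjusted p 0.0537 to 0.279). Under the Hep-3B label it was at -0.13.

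Set side by side, 10 genes fell in both lines, which 3.69% of the 13800 genes tested in both did. They were HMGCS1, MVK, MVD, FDPS, FDFT1, LSS, TM7SF2, STARD4, INSIG1 and SREBF2. The 4 genes ACAT2, CYP51A1, NSDHL and ERG28 fell under the Hep-3B label and rose in Huh-7, as did 4.08% of all genes. IDI1, SQLE, EBP, SC5D and DHCR7 were called under the Hep-3B label alone, LBR, MSMO1, MYLIP, TMEM97 and INSIG2 in Huh-7 alone, and PMVK, GGPS1, HSD17B7 and SCAP in neither. Among genes with a promoter window, CCAAT stood in 9 of 9 shared falls, 2 of 3 opposite genes, 4 of 4 called under the Hep-3B label alone, 3 of 5 called in Huh-7 alone and 2 of 4 called in neither. It stood in 20 of the 25 genes with a window, some of which have several windows. The share over all promoters (34.6%) is by window, not by gene. A link between CCAAT and the response was not tested. Across the 28 genes the 2 changes were not aligned (Pearson r = -0.104, Spearman rho = -0.058, n = 28 genes that share the same libraries), and 19 of 28 (67.9%) had the same sign. Over all 13800 genes tested in both, r was 0.0498, rho was 0.0365 and 50.6% had the same sign.

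The difference of the responses was called for 17 of the 28 genes, against 31.4% of all genes tested in the fit of the 4 groups. After siARD1 NAA10 was at 24.9% of control under the Hep-3B label and at 6.34% in Huh-7. The part of that in the differences was not tested. Line and library handling cannot be told apart here either. Among all 17122 genes tested, 2607 were called as more positive in Huh-7 and 2773 as more negative. In 13 of the 17 members called, the change was more positive in Huh-7. The largest such differences were those of CYP51A1 (1.08, SE 0.20, adjusted p = 0.000147), NSDHL (0.81, SE 0.15, adjusted p = 0.000139), MVK (0.80, SE 0.15, adjusted p = 0.000226), ACAT2 (0.78, SE 0.12, adjusted p = 1.56e-05) and ERG28 (0.74, SE 0.12, adjusted p = 1.59e-05). DHCR7 (0.66), FDFT1 (0.54), FDPS (0.49), IDI1 (0.41), EBP (0.37), LSS (0.31), SREBF2 (0.30) and TMEM97 (0.25) completed them. In the other 4 it was more negative in Huh-7, namely MYLIP (-1.10), INSIG2 (-0.86), SC5D (-0.52) and STARD4 (-0.34). Calls for IDI1, LSS, EBP, STARD4 and TMEM97 were each lost when some single libraries were left out. For LSS this was siARD1 1 under the Hep-3B label (0.26, adjusted p = 0.0557). The IDI1 values without siARD1 1 or 2 under the Hep-3B label, or control 1, siARD1 2 or siARD1 3 in Huh-7, were 0.34 to 0.39 (0.0846 to 0.108). For EBP they were 0.28 to 0.37 (0.0579 to 0.119) without control 1, siARD1 2 or siARD1 3 under the Hep-3B label or control 1, control 3 or siARD1 3 in Huh-7. For STARD4 they were -0.34 to -0.22 (0.0635 to 0.183) without control 2, control 3, siARD1 2 or siARD1 3 under the Hep-3B label or control 2, control 3, siARD1 1 or siARD1 3 in Huh-7. TMEM97 gave 0.20 to 0.28 (0.0502 to 0.151) without control 1, control 3, siARD1 1 or siARD1 3 under the Hep-3B label or any Huh-7 library but siARD1 2. The difference for SQLE (0.26, adjusted p = 0.0591) was called without control 2 (0.37, 0.00559) or control 3 (0.30, 0.0461) under the Hep-3B label. It was also called with RLE factors (0.29, 0.0313), DESeq2 (0.29, 0.0439), no filter (0.28, 0.0394) and the replicate block (0.25, 0.0279). The difference for PMVK (0.30, 0.109) was called without siARD1 2 in Huh-7 (0.40, 0.0318).

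In controls, most of the 28 genes stood higher in Huh-7. The contrast of controls was called for 27, and PMVK was not called. Of the 27, 21 were higher in Huh-7, against 40.7% of all genes tested, and 6 were lower. Among all 17122 genes tested, 6969 were higher, 6852 were lower and 3301 were not called, so most genes differed. HMGCS1 was 11.2 times higher (log2 difference 3.48, SE 0.08, edgeR adjusted p = 1.55e-23), EBP 7.09 times and ACAT2 5.14 times. MYLIP (-1.26), INSIG1 (-0.71), FDFT1 (-0.55), SQLE (-0.40), SREBF2 (-0.35) and INSIG2 (-0.24) were lower in Huh-7, in log2. The line and the handling of its libraries cannot be told apart. Per kilobase of annotated exon, the order of levels differed as well. Under the Hep-3B label FDFT1 led at 63.9 CPM per kb, then INSIG1 at 51.3, SREBF2 at 47.9 and DHCR7 at 45.9, where FDFT1 overlapped INSIG1 in range and the last 3 overlapped each other, and CYP51A1 (1.47) and HSD17B7 (1.34) were lowest with overlapping ranges. In Huh-7 DHCR7 led at 96 CPM per kb, then HMGCS1 at 90.9 and MSMO1 at 86.3, of which the last 2 overlapped, and CYP51A1 was lowest at 3.10. After siARD1 FDFT1 and DHCR7 still led, at 38.8 and 95.2 CPM per kb, and MYLIP became the lowest in Huh-7 at 2.26.

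**Figure D4:**
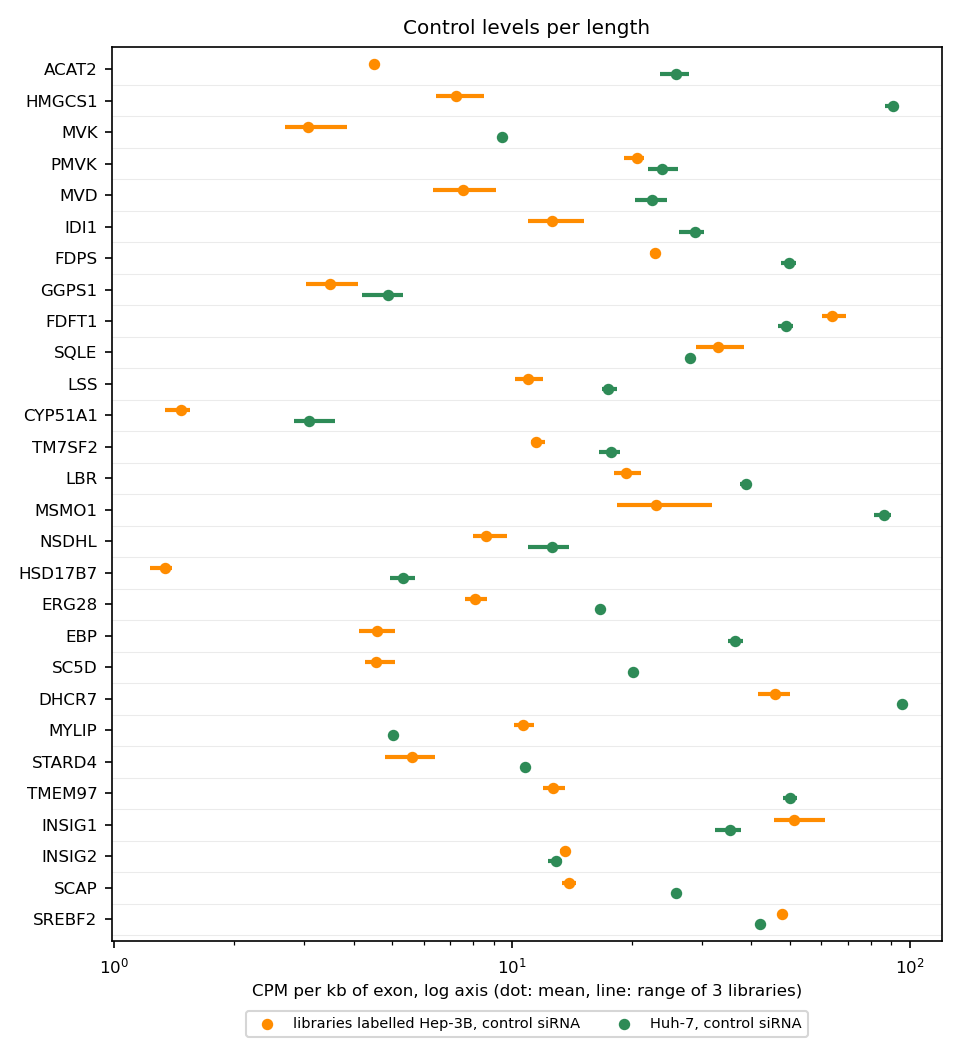
Control level of each gene in CPM per kb of annotated exon (log axis), as the mean (dot) and range (line) of the 3 control libraries of each line. HMGCS1 is furthest apart, and MYLIP, INSIG1, FDFT1, SQLE, SREBF2 and INSIG2 are the genes whose Huh-7 dot lies to the left.

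Other genes of the SREBP pathway and its neighbours were read from the same fits. Among all genes tested, 16.8% rose and 15.3% fell under the Hep-3B label, and 21.2% rose and 18.9% fell in Huh-7, and the counts of each list below stand against these shares. Of 12 genes of SREBP processing and turnover, 5 rose and 1 fell under the Hep-3B label (median 0.16) and 3 rose and 2 fell in Huh-7 (median 0.04). RNF139, a ligase of the INSIG complex, went from 72.7, 58.3 and 55.2 CPM to 101, 106 and 95.6 CPM under the Hep-3B label (log2 change 0.70, edgeR adjusted p = 4.61e-05), and MBTPS2, the site-2 protease that releases SREBP2, rose there too (0.42, edgeR adjusted p = 0.00166). In Huh-7 RNF145 fell (-0.35, edgeR adjusted p = 0.00112). The 14 genes of the isoprenoid branch outside sterols had 2 rises and 4 falls under the Hep-3B label, and 6 rises and 1 fall in Huh-7. ZMPSTE24, the protease that matures farnesylated prelamin A, rose in both (0.29 and 0.37, edgeR adjusted p = 0.00803 and 5.7e-05).

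Oxysterol and liver X receptor genes moved downwards where they were called. Of 12, 8 were tested under the Hep-3B label and 6 fell (median -0.39), against 15.3% of all genes tested. In Huh-7 9 were tested and 3 fell (median -0.02), against 18.9%. NR1H3, which encodes liver X receptor alpha, fell from 27.6, 33 and 30.5 CPM to 13.8, 17.4 and 14.2 CPM under the Hep-3B label (log2 change -1.0, edgeR adjusted p = 5.87e-06). ABCG1, a sterol exporter and receptor target like MYLIP, fell in Huh-7 from 3.10, 1.82 and 2.06 CPM to 0.413, 0.467 and 0.366 CPM (log2 change -2.45, SE 0.35, edgeR adjusted p = 7.44e-06), with as few as 7 counts in a library. SREBF1, the sister gene of SREBF2 that serves fatty acid synthesis, fell in both (-1.17 and -0.56, edgeR adjusted p = 2.73e-08 and 6.29e-08). The fatty acid list of 20 genes had 9 falls and 3 rises under the Hep-3B label (median -0.15) and 11 falls and 4 rises in Huh-7 (median -0.23). Of the 19 tested genes of sterol transport, storage and export, 5 fell and 3 rose under the Hep-3B label, and 6 fell and 2 rose in Huh-7. Among them NPC2, which hands cholesterol out of the lysosome, rose in Huh-7 from 35.5, 32.8 and 29.5 CPM to 59.3, 54.3 and 56.8 CPM (log2 change 0.80, edgeR adjusted p = 2.58e-08), while LIPA, the lysosomal lipase that frees it, fell (-0.43, edgeR adjusted p = 1.55e-06).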

How the data were processed

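Trizol was used to extract total RNA, and strand-directional libraries were built after removal of rRNA, per the labels. Reads were trimmed with cutadapt 4.6 and aligned with STAR 2.7.11b to GRCh38, per the submitters' processing notes. The deposited tables, one per line, hold the authors' raw counts for Ensembl gene IDs. How reads were counted (tool, strand setting, gene annotation) is not given in the sources used here. Totals were 17327615 to 25960237 counts per library. Genes were kept with filterByExpr (minimum count 10, minimum total 15), which left 15762 and 15919 genes, scaled with TMM and tested with robust quasi-likelihood fits in edgeR 4.0.16 (R 4.3.3), 1 fit per line, with Benjamini-Hochberg adjustment over all genes tested and a threshold of 0.05. Differences between lines and control contrasts came from 1 fit of the 4 groups over 17122 genes. SE is the absolute log2 change over the square root of F, an approximation. An exact two-sided permutation test of 3 libraries against 3 cannot give p under 0.1. Levels per kb used the summed exon length of GENCODE v29, which also gave gene positions. The steps were tested on simulated data. Each result was recomputed with DESeq2 1.42.0, limma-voom 3.58.1, RLE factors, upper-quartile factors, no filter, 1 CPM in 3 libraries, both lines in one fit, a replicate block and each library left out. The rule names all 28 genes, NAA10, neighbours that overlap or start within 1000 bases on the other strand, and up to 3 genes per list and line by p, of which some are not reported here. The members and lists were chosen with earlier results of these data known.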

Additional observations from a re-analysis of the deposited data

Results flagged for a closer look

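The response to siARD1 differed between the lines for 17 of the 28 genes, against 31.4% of all genes tested. This was by a test of the difference itself in edgeR with all 4 groups. After siARD1 NAA10 was at 24.9% of control under the Hep-3B label and at 6.34% in Huh-7. The part of that in the differences was not tested. Differences below are Huh-7 minus the libraries labelled Hep-3B, in log2 units. They were 1.08 for CYP51A1, 0.81 for NSDHL, 0.80 for MVK, 0.78 for ACAT2, 0.74 for ERG28, 0.66 for DHCR7 and 0.54 for FDFT1. Smaller positive values were 0.49 for FDPS, 0.41 for IDI1, 0.37 for EBP, 0.31 for LSS, 0.30 for SREBF2 and 0.25 for TMEM97. Negative values were -1.10 for MYLIP, -0.86 for INSIG2, -0.52 for SC5D and -0.34 for STARD4. The calls for IDI1, LSS, EBP, STARD4 and TMEM97 did not hold when some single libraries were left out, and those for the other 12 genes held under all 17 alternatives run.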

How the results depend on the processing

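Counts of called genes stayed within 1.5 times of the reported ones under each alternative run. Leaving out 1 library gave 3695 to 4922 called genes and 17 to 18 of the 28 under the Hep-3B label, 5249 to 6137 and 15 to 19 in Huh-7, and 4739 to 5579 and 13 to 17 for the difference between lines. The controls of the 2 lines differed in 26 to 27 of the 28. In the reported contrast all but 3301 of all 17122 genes tested differed. Of the called members, 16 of 19, 13 of 19 and 12 of 17 were called under every alternative. The median of the 28 under the Hep-3B label was -0.316 without control 1. Replicate numbers were shared across groups. Deviations of same-numbered libraries correlated at 0.0344, 0.0652 and 0.0643 under the Hep-3B label and at 0.052, -0.0646 and 0.00746 in Huh-7. Differently numbered libraries under the Hep-3B label correlated at -0.0548 to -0.0103, so each library there correlated best with its own number. That was not so in Huh-7. Whether a shared number marks a pair is not said in the labels and was not tested. With the replicate number as a block, 5597, 6328 and 5606 genes and 20, 18 and 17 of the 28 were called, TMEM97 was lost in Huh-7 (0.14, adjusted p = 0.0515) and LBR was gained under the Hep-3B label (-0.19, 0.0252). Among differences between lines, the block gained SQLE (0.25, 0.0279) and lost TMEM97 (0.25, 0.0501). The block was not run for the control contrast. Among values for single genes, 1142 of the alternatives kept the direction and the call, 72 lost the call, 20 gained it and 26 changed sign, all on values that were not called. Over the left-out libraries, log2 changes under the Hep-3B label ran from -0.38 to 0.07 for MSMO1, -0.08 to 0.16 for HSD17B7 and -0.06 to 0.01 for INSIG2. In Huh-7 they ran from -0.00052 to 0.23 for PMVK, -0.02 to 0.01 for DHCR7 and -0.05 to 0.03 for SCAP. Differences between lines ran from -0.02 to 0.19 for HMGCS1, -0.0037 to 0.25 for MVD, -0.03 to 0.20 for GGPS1, -0.12 to 0.02 for TM7SF2 and -0.14 to 0.09 for INSIG1. HSD17B7 under the Hep-3B label was at -0.01 with upper-quartile factors and -0.0011 with limma-voom, and the INSIG1 difference was at 0.01 with RLE factors and with DESeq2. The cause was not tested. With 3 libraries a group, changes near the SE could not be called, and CYP51A1 rested on as few as 48 counts.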

Other observations

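Further genes of sterol storage and transport changed. Under the Hep-3B label GRAMD1B, which moves cholesterol from the plasma membrane to the endoplasmic reticulum, fell from 108, 97.4 and 96.2 CPM to 59.9, 69.5 and 58.1 CPM (log2 change -0.69, edgeR adjusted p = 9.55e-06). NCEH1, a cholesteryl ester hydrolase, rose there from 51.1, 47.4 and 45.9 CPM to 69.5, 70.3 and 69.3 CPM (log2 change 0.53, edgeR adjusted p = 2.99e-05). LRP1, a lipoprotein receptor, fell from 1620, 1790 and 1640 CPM to 1230, 1290 and 1190 CPM (log2 change -0.44, edgeR adjusted p = 3.17e-05). CAV1, the caveolae protein, fell in Huh-7 from 38.7, 34.7 and 37.0 CPM to 21.6, 25.2 and 18.7 CPM (log2 change -0.75, edgeR adjusted p = 1.3e-06). All of these groups were separate.

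Among fatty acid genes, SCD, the stearoyl-CoA desaturase, fell under the Hep-3B label from 1920, 1860 and 1840 CPM to 956, 879 and 893 CPM (log2 change -1.04, SE 0.06, edgeR adjusted p = 1.05e-08), and FADS2 fell from 341, 341 and 327 CPM to 198, 181 and 175 CPM (log2 change -0.86, edgeR adjusted p = 2.07e-07). In Huh-7 ACSS2, which makes acetyl-CoA from acetate, fell from 72, 74.9 and 73.8 CPM to 45.5, 38.8 and 46.4 CPM (log2 change -0.76, edgeR adjusted p = 2.21e-08), while ME1, malic enzyme, rose from 83.8, 82.1 and 82.0 CPM to 122, 121 and 109 CPM (log2 change 0.51, edgeR adjusted p = 3.37e-07).

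The divergent non-coding gene INSIG1-DT, which starts 235 bases from INSIG1 on the other strand, fell in Huh-7 from 2.59, 3.46 and 2.80 CPM to 0.878, 0.934 and 1.36 CPM (log2 change -1.48, SE 0.26, edgeR adjusted p = 9.89e-05). The libraries labelled Hep-3B held 1.65, 1.16 and 1.02 CPM in controls and 0.805, 1.56 and 1.12 CPM after siARD1 (log2 change -0.13, adjusted p = 0.798), with groups that overlapped and as few as 14 counts.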
